A study of Oryctolagus cuniculus with 6 samples.

Results

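Nucleosome histone genes of rabbit limbal stem cells (LSCs) were described in cultures from fresh and from preconditioned limbal tissue. The genes were chosen by the deposited annotation: every row whose Gene Ontology terms include the nucleosome was taken, which gave 81 of 22190 genes. The choice used no measured value, but the group was taken up with the difference between preconditioned and fresh cells already known, so the counts and medians over the genes are a description and no p was computed for the group. By their descriptions, 55 of the 81 genes are replication-dependent histones, 13 are variant histones, 4 are histones that could not be put in either class, and 9 encode other nuclear proteins that carry the term.

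The RNA came from LSCs in primary culture, grown as outgrowths of limbal explants of the rabbit Oryctolagus cuniculus. In the fresh group (n = 3 libraries) the tissue went directly into culture. In the preconditioned group (n = 3) whole corneas were first stored in liquid nitrogen for a week in a freezing medium that contained interleukin-1β (IL-1β), an inflammatory cytokine, and were then thawed and cultured in the same manner. Freezing, medium and cytokine came together in that group and cannot be told apart. Strain, sex and age of the rabbits and the number of animals behind each library are not given in the sources used here, so the p-values measure the spread between these libraries, which may be technical.

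A nucleosome is a stretch of DNA wound around a core of the histones H2A, H2B, H3 and H4, and the linker histone H1 binds where the DNA enters and leaves. Replication-dependent histone genes lie in clusters, have no introns and are transcribed mainly in S phase, when new DNA has to be packaged, and most of their mRNAs end in a stem-loop in place of a poly(A) tail. Variant histones such as H2A.Z, H3.3 and the centromeric H3 CENPA are made from genes outside the clusters, with ordinary polyadenylated mRNAs, and take over particular places on the chromosome. LSCs sit at the rim of the cornea and renew its epithelium, and their daughters pass through rapid divisions in culture.

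Each library held between 31952352 and 34327534 counts on genes. Within groups, log2 CPM (a gene's counts per 1000000 counts of its library, with the library size scaled by TMM) correlated between 0.946 and 0.980, and no pair of libraries came near sampling noise, with chi-square values per degree of freedom from 48.1 to 147. Preconditioned replicate 1 stood nearest to the fresh libraries in many of the values below. In those values leaving it out tends to widen the difference, while some other differences narrowed or changed sign without it. Values without it are therefore given as part of the range over the omission of each library and lend no support to a call. The summed level of 17 S-phase genes was 1394, 1116 and 1081 CPM in the fresh libraries, and 998, 384 and 459 CPM in preconditioned replicates 1, 2 and 3. Of the labelled cell type, the epithelial keratin KRT5 stood at 9601 ± 1156 CPM in fresh and 9320 ± 2234 CPM in preconditioned LSCs (SD, n = 3), and the limbal progenitor factor TP63 at 237 ± 10.1 and 139 ± 38.9 CPM. EPCAM stood at 82.9 ± 7.74 and 118 ± 13.7 CPM, PAX6 at 198 ± 21.9 and 346 ± 131 CPM, and KRT3 at 1342 ± 1171 and 579 ± 299 CPM. Of the 7 epithelial genes analysed, 3 were higher and 4 lower in preconditioned LSCs, and only EPCAM and TP63 without overlap between the groups. KRT12, KRT14 and ALDH3A1 were not analysed here under those names. In bulk RNA, fewer cells of a type and less RNA per cell cannot be told apart.

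The labels give the measured molecule as poly(A) RNA. For the replication-dependent genes the counts therefore refer to transcripts that such a selection keeps, and a change in the tail of these mRNAs and a change in their amount cannot be told apart. Single genes were ranked on FPKM, the deposited value per length and depth, while sums and shares of CPM also weight each gene by its length and serve to compare libraries. The lengths behind the FPKM of these genes ranged from 388 to 14483 bases. Many descriptions recur in several near-identical gene copies. Reads shared by such copies may have been split or dropped in the counting, so values for single copies of H3.3, H2A, H2B, H3 and H4 genes are uncertain.

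Per length, the genes with the highest levels in both groups were variant histones, although the scarcest variants lay below the most abundant replication-dependent genes. The histone H2A.Z (LOC100348415), which marks promoters, had the highest level of all 81 genes, with 367 ± 37.5 FPKM in fresh and 239 ± 73.9 FPKM in preconditioned LSCs. It was followed by H2AZ2, the second H2A.Z gene, with 120 ± 14.7 and 112 ± 9.80 FPKM, and by a copy of H3.3 (LOC127490226) with 89.9 ± 10.7 and 107 ± 16.4 FPKM. H2A.J (LOC100350997) stood at 57.6 ± 4.14 and 106 ± 18.1 FPKM, and in the preconditioned group H2AZ2, that H3.3 copy and H2A.J lay within each other's spread. The highest replication-dependent gene was H1-2, a linker histone, with 14.9 ± 1.46 and 26.6 ± 5.11 FPKM, and the H2B gene LOC100351672 came next in preconditioned LSCs with 25.9 ± 6.17 FPKM, within the spread of H1-2. Replication-dependent genes made up between 6.42 and 7.20% of the summed FPKM of both classes in the fresh libraries and 8.98, 14.9 and 15.2% in preconditioned replicates 1, 2 and 3, so that these shares did not overlap between groups.

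**Figure D1:**
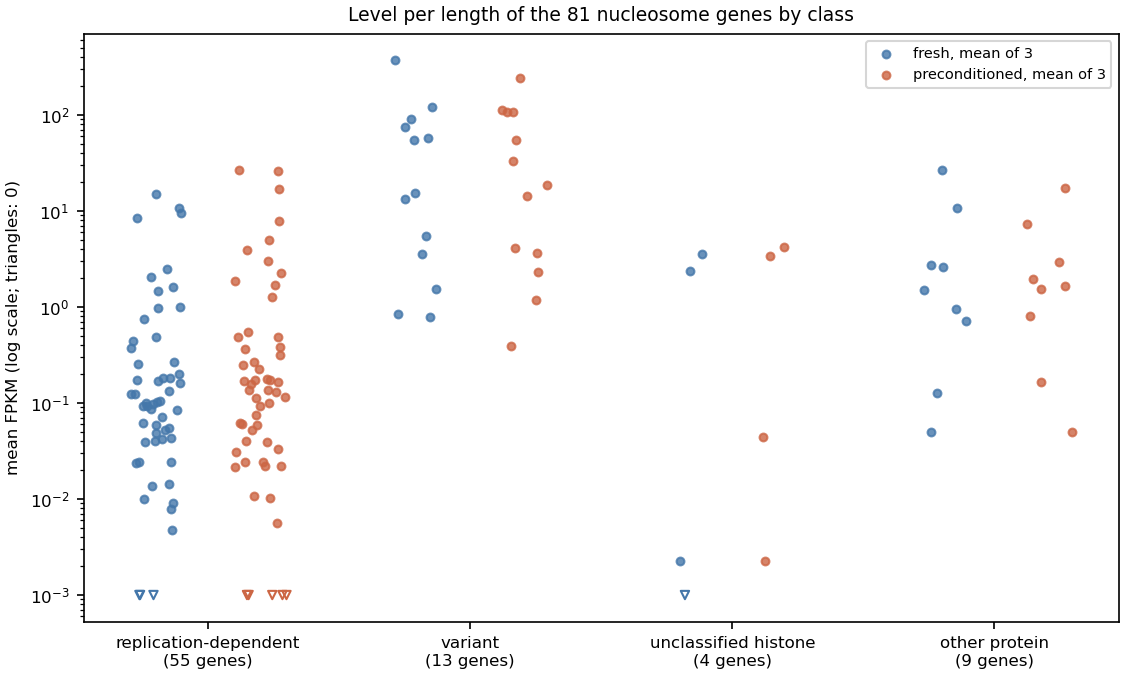
Mean FPKM (log scale) of each of the 81 nucleosome genes in fresh and preconditioned LSCs, by class, with 1 point per gene and group and triangles for genes at 0. Most of the 55 replication-dependent genes lie below the 13 variants, of which H2A.Z is highest at 367 FPKM in the fresh group.

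Of the 81 genes, 37 had enough counts to be tested. All 13 variants passed that filter, as did 15 of the 55 replication-dependent genes, 2 of the 4 unclassified histones and 7 of the 9 other proteins. Among the 40 replication-dependent genes that did not pass, no library held more than 20 counts, and 16 had at most 3 counts in every library. The H1 and H2B families contributed most of the tested replication-dependent genes, with 4 of 6 and 7 of 16 members, against 3 of 17 for H2A, 1 of 10 for H4 and 0 of 6 for H3. Among the tested genes, H1-5 passed the filter only through its preconditioned libraries and LOC127490211 only through its fresh ones.

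In edgeR's quasi-likelihood test, 4 of the 37 tested genes were called higher in preconditioned LSCs (adjusted p of at most 0.05 and at least a doubling, a log2 fold change of 1), and 0 were called lower. That is 10.8% of those tested, where 2.29% of the 15029 tested genes of the whole transcriptome were called in either direction, 1.08% higher and 1.2% lower. The 4 genes are 2 replication-dependent histones, H1-2 and the H2B gene LOC100351672, and 2 variants, H2A.J (LOC100350997) and a copy of H3.3 (LOC100346558). At an unadjusted p under 0.05 there were 11 of the 37 higher and 4 lower, beside 15.5% of all tested genes higher and 15.1% lower. With libraries scaled by size alone, 2 were called, and the split over all genes moved from 163 higher of 344 calls to 142 higher of 565.

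DESeq2, the study's own tool, called 7 of the 39 nucleosome genes it tested higher and 1 lower, beside 3.62% of all tested genes higher and 4.17% lower. The 7 hold the 4 genes above and 3 more H2B genes (LOC100343938, LOC100355462 and LOC100347239), and the gene called lower is CENPA. LOC100347239 is outside the rule by which genes are named here and was picked after its values were seen.

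Counted by overlap of the libraries, 12 of the 37 tested genes (32.4%) had all 3 preconditioned values above all 3 fresh values, beside 17.9% of all tested genes. In 3 genes (8.11%) all preconditioned values lay below all fresh ones, beside 18.8% of all tested genes. In the remaining 22 the groups overlapped. Leaving out H1-5 and LOC127490211, each of which passed the filter through the group where it is high, 11 of 35 were higher and 2 lower. The 12 genes comprise 8 replication-dependent and 4 variant histones, and the 3 are LOC127490211, CENPA and LOC100349935, an N-PAC gene among the other proteins that was named after its values were seen.

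The median log2 fold change was 1.01 over the 15 tested replication-dependent genes and 0.18 over the 13 variants, and 0.0071 over all tested genes. These sizes depended on the scale: on log2(FPKM + 1) and log2(FPKM + 0.1) the replication-dependent median was 0.39 and 0.63, and the variant median was -0.0065 and -0.011. The variant median was 0.0033 with library size alone and ranged from -0.00021 (without preconditioned replicate 1) to 0.35 (without fresh replicate 3) when a library was left out, where the replication-dependent one ranged from 0.76 to 1.16. Fold changes were above 0 in 14 of the 15 replication-dependent genes but in 8 of the 13 variants, which spanned from -1.56 to 1.57. In every preconditioned library the replication-dependent genes stood further above the fresh mean than the variants did. Their median deviation on the log2 scale was 0.51, 1.12 and 1.12 in preconditioned replicates 1, 2 and 3, where that of the variants was 0.18, 0.03 and 0.01.

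**Figure D2:**
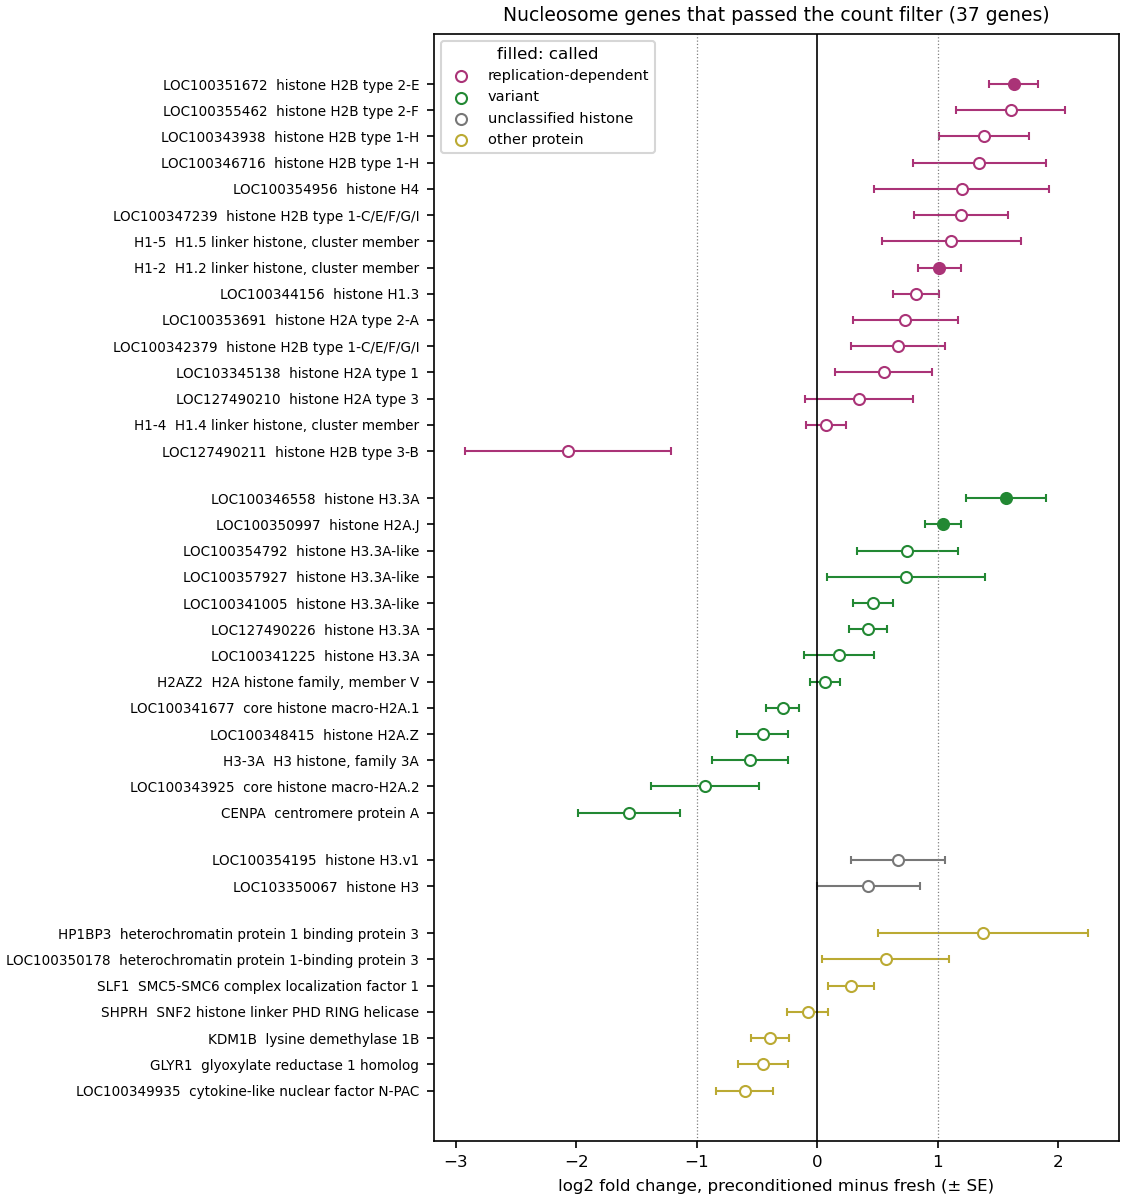
Log2 fold change with its standard error (edgeR, preconditioned minus fresh, n = 3 against 3) of the 37 tested nucleosome genes, grouped by class, with filled points for called genes and dotted lines at a doubling and a halving. The replication-dependent genes lie to the right of 0 except LOC127490211 at -2.07, while the variants extend from CENPA at -1.56 to LOC100346558 at 1.57.

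Among the replication-dependent genes, the H2B gene LOC100351672 (histone H2B type 2-E) had the lowest adjusted p. H2B pairs with H2A in the dimers that sit on either side of the H3 and H4 tetramer. Its level was 18.7, 19.6 and 18.7 CPM in the fresh libraries and 41.6, 69.5 and 65.7 CPM in the preconditioned ones. All preconditioned libraries were above all fresh ones, and preconditioned replicate 1 was the lowest of its group. It rose by 1.63 on the log2 scale, 3.099-fold (SE 0.20, adjusted p = 0.0209, edgeR).

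The other 6 tested H2B genes had few counts, and 5 of them had positive fold changes, from 0.67 to 1.61. LOC100343938 (histone H2B type 1-H) stood at 2.20, 2.39 and 3.53 CPM in fresh and 4.90, 10.5 and 5.83 CPM in preconditioned libraries, without overlap, with a log2 fold change of 1.39 (SE 0.37, adjusted p = 0.066). LOC100355462 (histone H2B type 2-F) stood at 0.609, 1.13 and 1.15 CPM in fresh and 2.16, 4.48 and 2.17 CPM in preconditioned libraries, also without overlap, with 1.61 (SE 0.45, adjusted p = 0.0725). In both, preconditioned replicate 2 was the highest library. LOC100346716, another gene described as type 1-H, averaged 0.415 ± 0.126 and 1.06 ± 0.524 CPM, and its groups overlapped because preconditioned replicate 1 lay within the fresh range (log2 fold change 1.35, SE 0.55, adjusted p = 0.151). In LOC100347239 (type 1-C/E/F/G/I) the levels were 1.32 ± 0.302 and 3.02 ± 1.05 CPM (log2 fold change 1.19, SE 0.39, adjusted p = 0.0972). LOC100342379, described in the same words, had 0.403 ± 0.00849 and 0.645 ± 0.0880 CPM without overlap and the smallest of these fold changes (log2 fold change 0.67, SE 0.39, adjusted p = 0.281). None of these 5 passed edgeR's test, and LOC100342379 is named, outside the rule, to complete the family.

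Among the 15 tested replication-dependent genes, 1 had a negative fold change. Of the 40 untested ones, 26 had a higher and 14 a lower mean CPM in preconditioned LSCs, at counts too low to test. LOC127490211 (histone H2B type 3-B) was at 0.551, 0.281 and 0.547 CPM in the fresh libraries and at 0, 0.160 and 0.165 CPM in the preconditioned ones. The groups did not overlap, but with so few counts the log2 fold change of -2.07 had an SE of 0.86 (adjusted p = 0.156). The gene next to it in the RefSeq table, LOC127490210 (histone H2A type 3), had 3.80, 2.95 and 3.28 CPM in fresh and 1.83, 4.51 and 6.45 CPM in preconditioned libraries. Here the preconditioned values spanned the fresh ones on both sides (log2 fold change 0.35, SE 0.45, adjusted p = 0.628).

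The linker histones, which compact the DNA between nucleosomes, had unlike fold changes. H1-2 had 20.2, 21.9 and 24.3 CPM in fresh and 34.4, 48.1 and 51.5 CPM in preconditioned libraries. The groups did not overlap, and H1-2 rose by 1.01 on the log2 scale, 2.02-fold (SE 0.18, adjusted p = 0.038). Scaled by library size alone its log2 fold change was 0.84, under the cutoff. H1.3 (LOC100344156) had 18.3, 14.6 and 14.8 CPM against 22.5, 33.6 and 28.1 CPM. These groups did not overlap either, and the log2 fold change of 0.82 (SE 0.19) was under the fold cutoff, with an adjusted p of 0.0525 in edgeR and 0.00395 in DESeq2.

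H1-4 had 11.7, 13.9 and 10.9 CPM in fresh and 13.2, 12.95 and 12.3 CPM in preconditioned libraries. The groups overlapped, with a log2 fold change of 0.07 (SE 0.17, adjusted p = 0.794) whose sign turned with library size alone (-0.096). H1-5, a scarce gene named for its place at the filter, averaged 0.323 ± 0.195 and 0.700 ± 0.0796 CPM (log2 fold change 1.11, SE 0.57, adjusted p = 0.232). Differences between the linker histones were not tested.

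**Figure D3:**
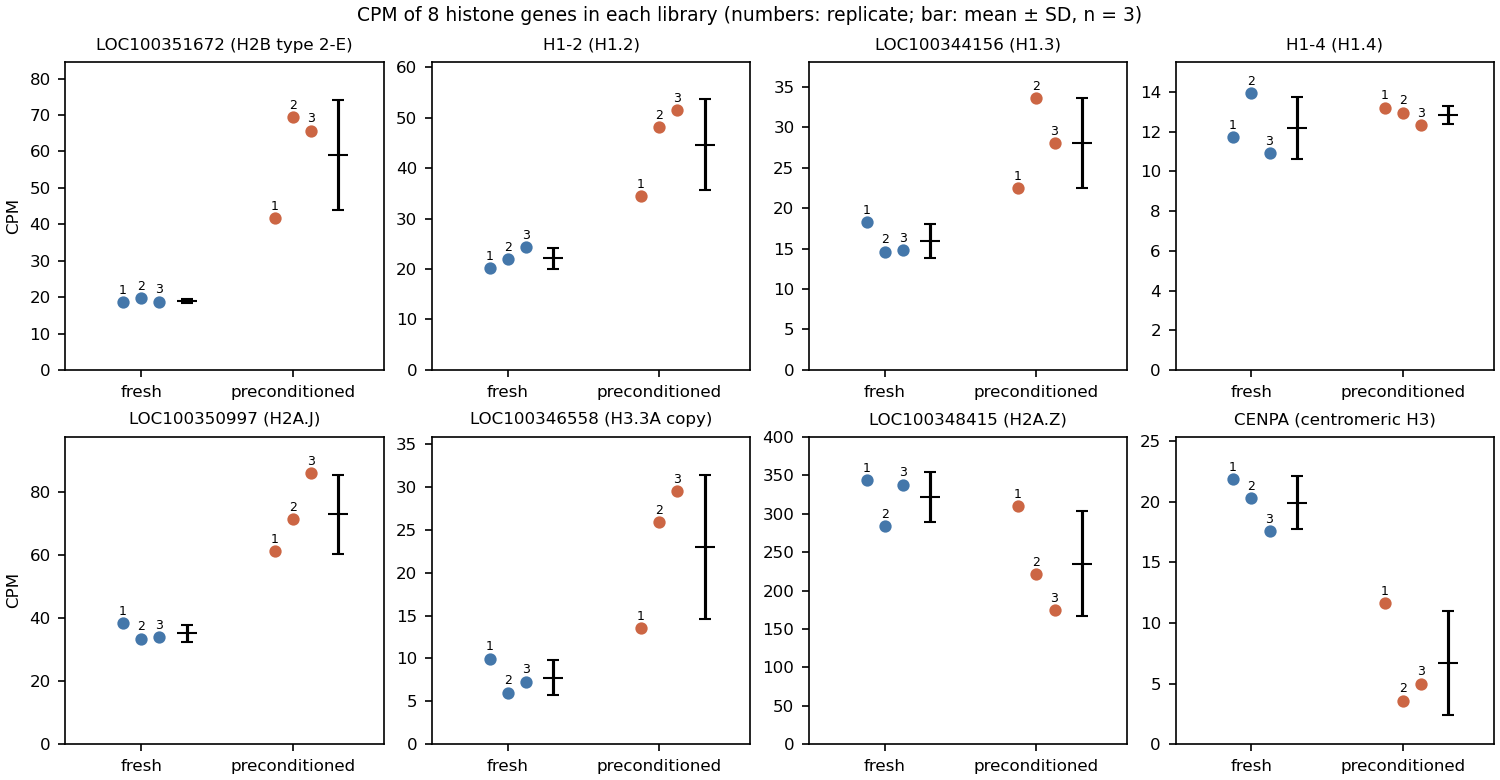
CPM of 8 histone genes in each of the 6 libraries (points numbered by replicate), with the mean ± SD of each group beside them. H2B type 2-E, H1.2, H1.3, H2A.J and the H3.3A copy lie higher in all preconditioned libraries, H1.4 and H2A.Z overlap, and CENPA lies lower in all 3.

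Summed over all 55 replication-dependent genes, tested or not, the level was 83.4, 83.7 and 84.5 CPM in the fresh libraries and 130, 198 and 186 CPM in the preconditioned ones. The fresh mean was 83.9 ± 0.531 CPM (SD), and the preconditioned mean of 171 ± 36.3 CPM was 2.04 times as high. The 6 H1 genes summed to 50.8 ± 0.370 CPM in fresh and 86.7 ± 13.4 CPM in preconditioned LSCs. The 16 H2B genes differed most, with 25.9 ± 0.896 and 75.1 ± 20.4 CPM, a ratio of 2.90. Most of both H2B sums came from the called gene LOC100351672, which averaged 19.0 and 58.9 CPM.

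The other families added little. The 17 H2A genes summed to 5.96 ± 0.339 and 8.11 ± 2.55 CPM, the 10 H4 genes to 0.638 ± 0.139 and 1.09 ± 0.354 CPM, and the 6 H3 genes to 0.629 ± 0.167 and 0.446 ± 0.0707 CPM. The libraries of both groups overlapped in H2A and H3, and in H4 they just did not, with 0.725 CPM in the highest fresh and 0.730 CPM in the lowest preconditioned library. Between 85.3 and 89.7% of the replication-dependent sum came from its 5 highest genes in each library. Without those 5 the remaining 50 genes summed to 11.9 ± 0.551 CPM in fresh and 19.8 ± 5.54 CPM in preconditioned LSCs, a ratio of 1.67.

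**Figure D4:**
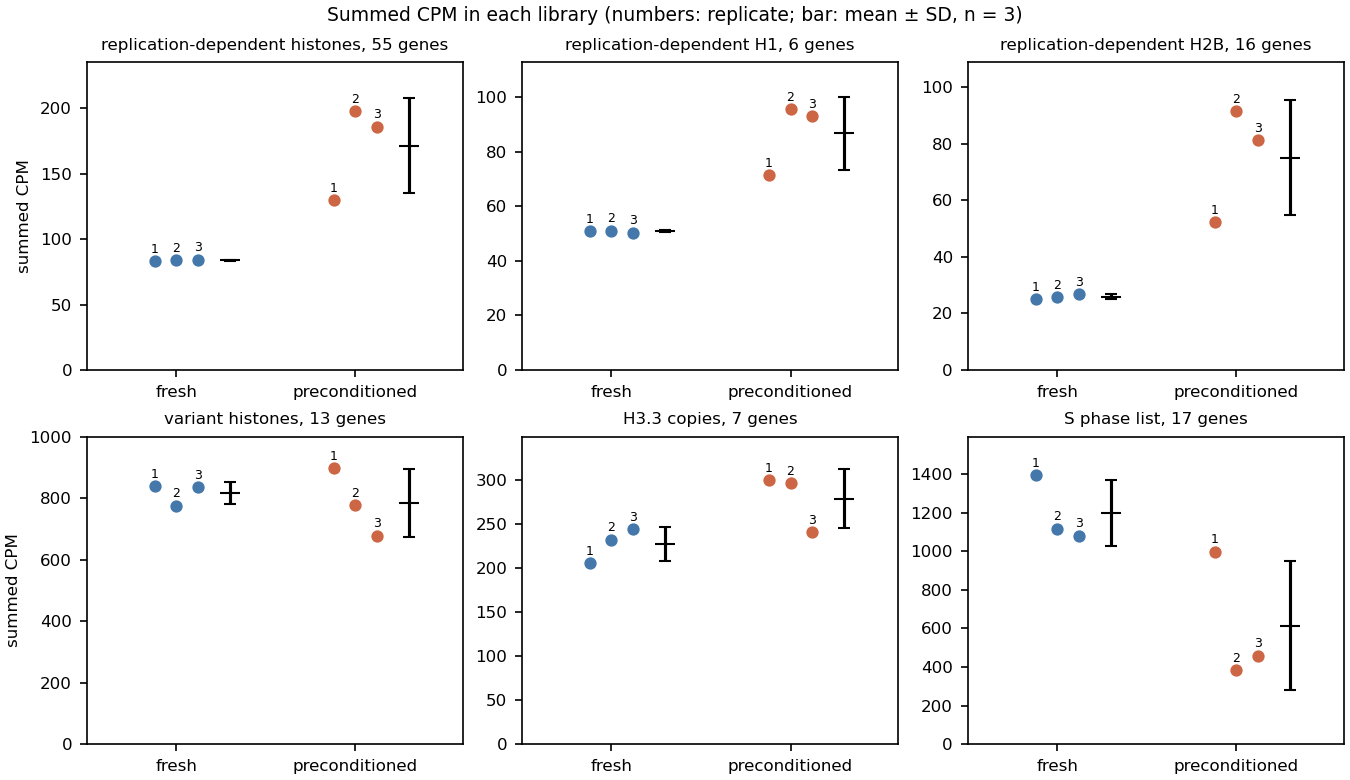
Summed CPM in each library (points numbered by replicate, mean ± SD beside them) for replication-dependent histones, their H1 and H2B families, variant histones, H3.3 copies and the S-phase list. The replication-dependent sum lies between 83.4 and 84.5 CPM in fresh and between 130 and 198 CPM in preconditioned libraries, while the S-phase sum lies between 1081 and 1394 and between 384 and 998 CPM.

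Of the 5 variant H2A genes, 1 was called. H2A.J (LOC100350997), an H2A variant that is transcribed outside S phase, had 38.4, 33.6 and 33.9 CPM in fresh and 61.3, 71.4 and 86.2 CPM in preconditioned libraries. Every preconditioned library was above every fresh one, and H2A.J rose by 1.05 on the log2 scale (SE 0.15, adjusted p = 0.0306, edgeR), or by 0.88 with libraries scaled by size alone, which is under the cutoff. H2A.Z (LOC100348415) had 344, 284 and 338 CPM in fresh and 310, 221 and 175 CPM in preconditioned libraries. Its groups overlapped through preconditioned replicate 1, with a log2 fold change of -0.45 (SE 0.21, adjusted p = 0.196). It was -0.71 without that library (adjusted p = 0.02) and between -0.54 and -0.28 without any other (adjusted p from 0.269 to 0.406). H2AZ2 had 73.4 ± 9.30 and 76.8 ± 5.13 CPM, with a log2 fold change of 0.07 (SE 0.12, adjusted p = 0.747) whose sign turned with library size alone (-0.10).

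The macroH2A histones carry a large extra domain and are found on silent chromatin. MacroH2A.1 (LOC100341677) had 145, 138 and 132 CPM in fresh and 133, 110 and 97.6 CPM in preconditioned libraries, which overlapped through preconditioned replicate 1 (log2 fold change -0.29, SE 0.13, adjusted p = 0.196). It was -0.43 without that library (adjusted p = 0.0311) and between -0.32 and -0.19 without any other (adjusted p from 0.267 to 0.415). MacroH2A.2 (LOC100343925) was scarce, with 1.503 ± 0.519 and 0.790 ± 0.296 CPM, and its groups overlapped too (log2 fold change -0.93, SE 0.45, adjusted p = 0.207). The sum over the 5 variant H2A genes was 570 ± 44.8 and 499 ± 79.3 CPM.

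CENPA, the H3 variant that marks the centromere, had 21.9, 20.3 and 17.6 CPM in the fresh libraries and 11.6, 3.58 and 5.01 CPM in the preconditioned ones. All preconditioned libraries were below all fresh ones, with replicate 1 closest. The log2 fold change of -1.56 (SE 0.42) did not pass in edgeR (adjusted p = 0.068) and did in DESeq2 (adjusted p = 0.00263). In edgeR the log2 fold change was -2.22 without preconditioned replicate 1 (adjusted p = 0.00398) and between -1.65 and -1.26 when any other library was left out (adjusted p from 0.135 to 0.188). HJURP, the chaperone that loads CENPA, was named after its values were seen: it averaged 8.53 ± 0.403 and 3.94 ± 2.19 CPM, also without overlap (log2 fold change -1.11, SE 0.39, adjusted p = 0.112).

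H3.3 replaces H3 outside replication, and 7 genes carry its description. The copy with the most counts, LOC127490226, had 128, 142 and 161 CPM in fresh and 201, 220 and 157 CPM in preconditioned libraries, which overlapped through preconditioned replicate 3 (log2 fold change 0.42, SE 0.16, adjusted p = 0.123). H3-3A had 51.3, 65.5 and 56.3 CPM in fresh and 60.0, 24.9 and 32.7 CPM in preconditioned libraries. Only preconditioned replicate 1 was within the fresh range, and the log2 fold change was -0.56 (SE 0.31, adjusted p = 0.271). Without that library it was -1.01 (adjusted p = 0.0104), and between -0.64 and -0.31 when any other was left out (adjusted p from 0.332 to 0.541).

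LOC100346558 went the other way. It had 9.97, 6.02 and 7.30 CPM in fresh and 13.5, 25.9 and 29.5 CPM in preconditioned libraries, without overlap, and rose by 1.57 on the log2 scale (SE 0.33, adjusted p = 0.0463). It lies near H3-3A in the RefSeq table, with 1 other gene between them. Because the copies share sequence, the values of LOC100346558 and H3-3A may not be independent of each other, which was not tested.

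The remaining 4 copies were not called. LOC100341005 (H3.3A-like) had 9.74, 12.01 and 10.5 CPM in fresh and 15.3, 15.7 and 13.4 CPM in preconditioned libraries, without overlap (log2 fold change 0.46, SE 0.17, adjusted p = 0.118). LOC100354792 averaged 0.774 ± 0.292 and 1.302 ± 0.0358 CPM, also without overlap (log2 fold change 0.75, SE 0.42, adjusted p = 0.265). In LOC100341225 and LOC100357927 the groups overlapped, with log2 fold changes of 0.18 (SE 0.29) and 0.74 (SE 0.66). The first turned to -0.10 without preconditioned replicate 2, and the second to -0.11 without preconditioned replicate 1. None of these 4 passed edgeR's test.

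All H3.3 copies together summed to 228 ± 19.5 CPM in fresh and 279 ± 33.4 CPM in preconditioned LSCs, with overlap. The share of H3-3A in that sum was 24.9, 28.2 and 23.0% in the fresh libraries and 19.98, 8.39 and 13.6% in preconditioned replicates 1, 2 and 3. LOC100346558 held 4.84, 2.59 and 2.99% and then 4.51, 8.72 and 12.2%. In replicates 2 and 3 the share of H3-3A was thus lower and that of LOC100346558 higher than in any fresh library. In replicate 1, of this pair, only H3-3A was outside the fresh range. The sum over all 13 variants was 818 ± 36.1 CPM in fresh and 785 ± 110 CPM in preconditioned LSCs.

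**Figure D5:**
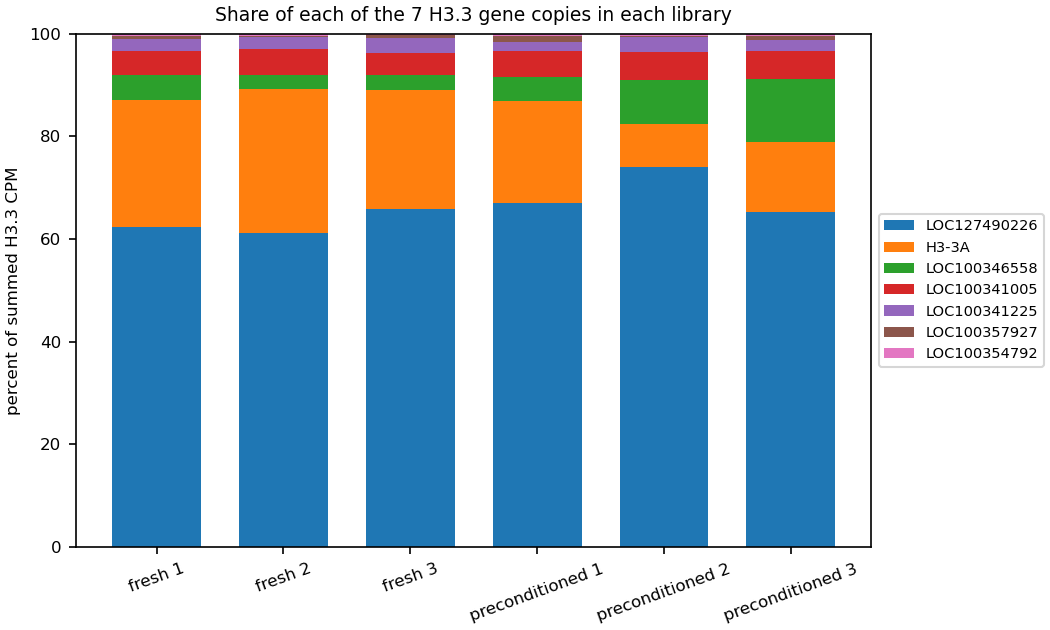
Percent of the summed H3.3 CPM held by each of the 7 gene copies in each of the 6 libraries. LOC127490226 holds between 61.1 and 73.9% in every library, and H3-3A holds between 23.0 and 28.2% in fresh and between 8.39 and 19.98% in preconditioned libraries.

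The 2 tested histones without a class, both described as H3, had log2 fold changes of 0.42 and 0.67 and overlapping groups. Of the 7 tested other proteins, 3 had positive and 4 negative fold changes and 0 were called by edgeR or by DESeq2 (median -0.08; 2 lower at an unadjusted p under 0.05). Among them the heterochromatin protein HP1BP3, picked after its values were seen, had 60, 84 and 82 counts in fresh libraries and 438, 58 and 38 in preconditioned ones. The second gene with that description, LOC100350178, had 179, 167 and 203 counts and then 179, 449 and 94. HP1BP3 is thus high in preconditioned replicate 1 alone and LOC100350178 in replicate 2 alone, so neither mean describes its group.

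The places of the genes were set beside the classes. Descriptions that put a gene in the replication-dependent class often name a cluster member or a numbered type, so a division by place is not a separate finding. In RefSeq's rabbit table (assembly mOryCun1.1, used only for the order of genes) 77 of the 81 were found. Of the 53 replication-dependent genes found, 48 lay in a block of at least 5 nucleosome genes with no more than 5 other genes between neighbours. Of the 12 variants found, 0 did. The block that holds LOC100351672 has 8 genes, of which 6 were tested and all 6 had positive fold changes. The largest block, of 29 genes with H1-2, H1-4 and LOC100347239 among them, had 6 tested genes, and all 6 had positive fold changes too. The H2A.J gene is adjacent to a replication-dependent H4 gene, LOC100351746, which did not pass the filter.

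Genes that act on histones were taken as fixed lists. Of 11 tested genes for histone mRNA transcription and processing, 3 had positive and 8 negative fold changes, with a median of -0.13, and 0 were called by edgeR or DESeq2, with 2 higher and 4 lower at an unadjusted p under 0.05 in edgeR (15.5 and 15.1% of all tested genes). YBX3 and UPF1, an RNA-binding protein and the helicase that helps to degrade histone mRNA, had the most counts and log2 fold changes of -0.44 (adjusted p = 0.0643) and -0.37 (adjusted p = 0.151). SLBP, the protein that binds the stem-loop and was named after its values were seen, stood at 48.6 ± 1.73 CPM in fresh and 34.3 ± 7.59 CPM in preconditioned LSCs without overlap (log2 fold change -0.50, SE 0.18, adjusted p = 0.11).

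Of 29 tested histone chaperones and deposition factors, 24 had negative fold changes, with a median of -0.37. edgeR called 0 of them, with 13 lower at an unadjusted p under 0.05, beside 15.1% of all tested genes. DESeq2 called 3 lower, beside 4.17% of all tested genes: NASP, which carries H1 and H3, HJURP and the replicative helicase subunit MCM2. NAP1L1, a carrier of H2A and H2B, and RBBP4, a subunit of the replication-coupled assembly factor, had the most counts and log2 fold changes of 0.03 (SE 0.14) and -0.06 (SE 0.10). Their groups overlapped.

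All 17 tested S-phase genes had negative fold changes, with a median of -1.11, and 11 had all preconditioned values below all fresh ones, beside 18.8% of all tested genes. edgeR called 1 of them lower and DESeq2 called 8, beside 1.2% and 4.17% of all tested genes. The called gene is CCNE1, a cyclin of the entry into S phase, which stood at 17.3 ± 2.72 and 8.08 ± 0.290 CPM and fell by 1.102 on the log2 scale (SE 0.18, adjusted p = 0.0326). RRM2, a subunit of ribonucleotide reductase and the gene with the most counts in the list, stood at 190 ± 39.6 and 87.8 ± 72.4 CPM with overlapping groups (log2 fold change -1.11, SE 0.54, adjusted p = 0.216). The replication-dependent histones and the S-phase genes therefore had medians of opposite sign. Preconditioned replicate 1, with the highest S-phase sum of its group, had the lowest replication-dependent sum, and replicates 2 and 3 had low S-phase and high histone sums. In the study's own flow cytometry, preconditioned LSCs had larger fractions of cells in S and G2-M phase than LSCs from fresh tissue. How those cell fractions relate to the RNA levels of the S-phase genes was not tested.

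Markers of other cell types were also summed, and 1 gene carried most of the difference in the stromal list. Its 8 genes summed to 477 to 961 CPM in fresh and 1045 to 2078 CPM in preconditioned libraries. Among them COL1A1, a fibrillar collagen, rose by 2.66 on the log2 scale (91.3 ± 29.8 to 578 ± 100 CPM, adjusted p = 0.0152), and the other 7 were not called, 3 of them with positive and 4 with negative fold changes. Without COL1A1 the stromal sums overlapped, at 420 to 853 CPM in fresh and 508 to 1385 CPM in preconditioned libraries. The 6 leukocyte markers summed to 95.4 to 132 and 122 to 310 CPM, nearly all of it CD68, which DESeq2 called higher, while PTPRC, the pan-leukocyte marker, stood at 0.339 ± 0.148 and 0.691 ± 0.703 CPM. The 4 endothelial markers summed to 2.67 to 3.13 and 1.07 to 13.01 CPM, the 5 melanocyte markers to 0.348 to 0.410 and 0.517 to 2.70 CPM, without overlap, and the 7 epithelial markers to 9758 to 13488 and 9167 to 13502 CPM. Most of the epithelial sum was KRT5, and the other epithelial markers had fold changes of both signs. In the melanocyte list DESeq2 called TYRP1, a pigment enzyme, higher (log2 fold change 2.61, adjusted p = 0.0325), and edgeR did not (adjusted p = 0.123). TYRP1 had 10, 9 and 6 counts in fresh and 4, 50 and 79 in preconditioned libraries, so its groups overlapped. It was the only melanocyte marker with enough counts to be tested. No marker was at 0 in every library. The part of these cells in the histone values was not tested.

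The 4 calls rested on most of the libraries. When fresh replicate 1, 2 or 3 or preconditioned replicate 2 or 3 was left out, 0 nucleosome genes were called by edgeR (at an unadjusted p under 0.05, 7 to 10 higher beside 10.3 to 12.7% of all tested genes, and 1 to 3 lower beside 9.91 to 11.7%), with adjusted p from 0.0679 to 0.106 for LOC100351672 without a fresh library and 0.0517 to 0.0894 without a preconditioned one. The count over all tested genes dropped with it, to between 14 and 72, from 344. Without preconditioned replicate 1, 10 nucleosome genes were called, 8 of them higher, beside 1546 of all genes. The 8 are the 4 above and the H2B genes LOC100343938, LOC100347239, LOC100355462 and LOC100346716, and the 2 called lower are CENPA and H3-3A. The direction of the replication-dependent sum did not depend on a library: its log2 ratio was 1.03 with all libraries and between 0.91 and 1.195 when any one was left out.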

How the data were processed

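The authors used hisat2 for alignment and htseq-count for counting, and the deposited tables hold raw counts and FPKM values of 3 fresh and 3 preconditioned libraries. The genome build, strand setting and treatment of reads that map to several genes are not given in the sources used here. The sample labels name TRIzol for RNA extraction and the study's methods another kit. Gene classes came from the deposited descriptions. The nucleosome genes, classes and companion lists were chosen with earlier results of these data known. Named are called genes, tested variants, the 6 replication-dependent genes with the most counts, and the 4 with the largest change in each direction, where so many existed.

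The main test was run on the counts with edgeR 4.0.16 (R 4.3.3): filterByExpr (15029 of 22190 genes kept), TMM, robust quasi-likelihood test of condition over all 6 libraries, Benjamini-Hochberg adjustment over all tested genes. Calls used the study's cutoffs, adjusted p up to 0.05 and log2 fold change from 1 upward in size. The SE is the fold change divided by the square root of F. DESeq2 1.42.0, limma 3.58.1 on log2 FPKM (pseudocounts 1 and 0.1), other scalings and filters, a replicate block and omission of each library were alternatives. The code was tested on simulated data. Depth was 31952352 to 34327534 counts per library, so spread between libraries limits precision except for genes with few counts. Same-numbered libraries did not deviate together.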

Additional observations from a re-analysis of the deposited data

How the results depend on the processing

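The directions of the 4 called genes and of the replication-dependent sum (log2 ratio 1.03, and 0.86 by library size alone or 0.80 on FPKM) held in every alternative run, but most counts of calls did not. Nucleosome genes called numbered 4 in the quasi-likelihood test, 8 in DESeq2, 2 with library size alone, 0 with a replicate block (8 higher and 2 lower at an unadjusted p under 0.05, beside 11.7 and 12.9% of all tested genes), 2 on log2(FPKM + 1), and 0 to 10 when a library was left out. The 2 on log2(FPKM + 1) were LOC100351672, higher, and CENPA, lower, and log2(FPKM + 0.1) also called LOC100346558 higher. At an unadjusted p under 0.05 in limma, 9 were higher and 9 lower on log2(FPKM + 1), beside 8.63 and 24.9% of all tested genes. On log2(FPKM + 0.1) these were 8 and 9, beside 8.62 and 25%. All tested genes called numbered 344, and 1190 in DESeq2, 565 with library size alone (142 higher, against 163 of 344), 30 with a replicate block, 590 on log2(FPKM + 0.1), 763 without the fold cutoff, and 14 to 1546 when a library was left out. No paired design is given: same-numbered libraries correlated at -0.067, -0.073 and -0.109, so the block is not evidence of a weaker difference. Of 14 alternatives, LOC100351672 was called in 8, LOC100346558 in 7, and H1-2 and H2A.J in 5 each. The median over variants (0.18) was 0.0033 with library size alone, which moved the median of all genes to -0.16, -0.0065 on log2(FPKM + 1), -0.011 on log2(FPKM + 0.1), and -0.00021 to 0.35 when a library was left out. Over all tested nucleosome genes the median (0.55) was 0.19 and 0.29 on log2(FPKM + 1) and log2(FPKM + 0.1), and over replication-dependent genes (1.01) 0.39 and 0.63. Among the 22 genes named by rule, for which alternatives were run, the sign changed in 5, none of them called. H2AZ2 was -0.10 with library size alone, -0.097 and -0.098 on the FPKM scales and between -0.0023 and 0.17 when a library was left out. H1-4 was -0.096, -0.080 and -0.088 in the first 3 of these and -0.0036 without fresh replicate 3. LOC100341225 was -0.0065 and -0.011 on the FPKM scales and -0.10 without preconditioned replicate 2. With a library left out, LOC100357927 ranged from -0.11 (without preconditioned replicate 1) to 1.15 and LOC127490210 from -0.077 (without preconditioned replicate 3) to 0.70. The causes were not tested. The 40 untested replication-dependent genes had at most 20 counts in a library and did not pass the filter on counts.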

Other observations

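Some histone genes do not carry the nucleosome term in the deposited annotation and were left out of the values above. H2AX (LOC100358742), the variant that is phosphorylated at broken DNA, stood at 21.3, 18.5 and 19.5 CPM in fresh and 18.1, 10.4 and 12.1 CPM in preconditioned libraries. All preconditioned values lay below the fresh ones, with a log2 fold change of -0.54 (SE 0.23, edgeR, adjusted p = 0.158). H1.0 (LOC100353233), the linker histone of resting and differentiated cells, stood at 78.8 ± 5.45 and 73.3 ± 25.9 CPM (SD, n = 3) with overlapping groups (log2 fold change -0.10, SE 0.26, adjusted p = 0.81).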
